A study of Mus musculus with 8 samples.

Results

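The genes described here act in meiosis, the division that makes eggs and sperm. They were read out in hippocampal neurons of control mice and of mice with a conditional knockout of Ctcf, the gene of the chromatin protein CTCF. The genes are Mnd1 and 9 further meiotic genes, Psmc3ip, Dmc1, Sycp1, Sycp2, Sycp3, Rec8, Smc1b, Stag3 and Spo11. All probes that carry one of these names in the scanner files were taken, dim ones included, which gave 14 probes for 10 genes, out of 55663 probes with 35701 names on the array. Mnd1 was chosen by its difference between knockout and control mice on these same arrays, and the others by name as genes of the same process, so the differences between genotypes are given for the members as a description, with no test.

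In meiosis SPO11 cuts the DNA, and the recombinase DMC1 searches the homologous chromosome for a matching sequence. MND1 binds HOP2, the product of Psmc3ip, and the pair stimulates DMC1. The chromosomes are held by a cohesin ring with the meiotic subunits REC8, SMC1B and STAG3, and joined by the synaptonemal complex, in which SYCP2 and SYCP3 form the lateral elements and SYCP1 the cross-links. Many genes of meiosis are kept silent in adult somatic tissue by DNA methylation and by a Polycomb complex that holds E2F6, MGA, MAX, PCGF6 and L3MBTL2. On all 4 control arrays here Mnd1, Psmc3ip, Dmc1, Sycp2, Sycp3, Rec8, Smc1b and Stag3 each had a probe well above background. Of all probes, 77.9% (WT 4) to 81.5% (WT 1) were so on a control array, and a gene with several probes counts here by any of them. The members are thus not set apart by this.

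The RNA came from the RiboTag method, in which Cre recombinase switches on a haemagglutinin-tagged form of the ribosomal protein Rpl22, and tagged ribosomes are pulled down from the tissue with an antibody to the tag, here anti-HA. Both groups were naive C57BL/6 mice, adult and at least 3 months old, that carried Camk2a-Cre, a driver of forebrain excitatory neurons, and the RiboTag allele. The 4 WT mice are labelled wild type for Ctcf and the 4 conditional knockout (CKO) mice Ctcf loxP/loxP, with 3 males and 1 female in each group. The series' design text gives loxP/loxP mice as controls, and the sample labels were followed. Each mouse was measured on 1 array.

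Between 72.2% (CKO 3) and 81.5% (WT 1) of the probes on an array were well above background, a call of the scanner software. The arrays lay on 3 slides, with slide 1 holding WT 1, slide 2 both females (WT 3 and CKO 2) beside WT 2 and CKO 1, and slide 3 the remaining mice, WT 4, CKO 3 and CKO 4. All 8 markers of excitatory neurons were well above background on all 8 arrays. So were 7 of 8 markers each of interneurons, oligodendrocytes, astrocytes and microglia, so this does not set excitatory neurons apart. Levels are log2 signals relative to the 75th percentile of each array, so 0 is the level of a fairly bright probe. Ctcf, the targeted gene, was at -1.08, -1.72, -1.45 and -1.14 in WT 1 to 4 and at -2.55, -2.40, -1.96 and -2.01 in CKO 1 to 4, a log2 difference of -0.88 with a standard error of 0.21. All 4 CKO mice were below all WT mice, although over all probes limma gave an adjusted p of 0.797. Which exons the loxP sites flank is not given in the sources used here, so the Ctcf probe may lie outside them.

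The 2 probes of Mnd1 read different parts of its transcript. The probe that starts at base 462 of the transcript has no position on the genome in the files, and all 3 of its reading frames are open. The probe that starts at base 793 lies on chromosome 3 at 83891877 to 83891936 (mouse build mm9), on the minus strand, and has a stop codon in each frame. The sequence of the first is shown because the Mnd1 result rests on it, those of Psmc3ip and Dmc1 because they read the partner and the target of MND1, and that of Sycp3 because its probe spans 3091 bases of the genome with 60 bases of sequence.
Mnd1, base 462: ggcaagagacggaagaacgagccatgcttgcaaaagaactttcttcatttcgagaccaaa
Psmc3ip, base 440: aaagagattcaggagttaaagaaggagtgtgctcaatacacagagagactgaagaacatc
Dmc1, base 614: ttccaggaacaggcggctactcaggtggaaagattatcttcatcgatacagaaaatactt
Dmc1, base 895: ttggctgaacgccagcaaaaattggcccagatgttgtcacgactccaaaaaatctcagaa
Sycp3, base 652: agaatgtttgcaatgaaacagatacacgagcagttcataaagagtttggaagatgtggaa
All letters are in lower case because no part of a probe is singled out. On mm9 the Psmc3ip probe lies on chromosome 11 at 100954219 to 100954278 and the Sycp3 probe on chromosome 10 at 87932348 to 87935438. The Dmc1 probes lie on chromosome 15, at 79419182 to 79419241 for base 614 and at 79415293 to 79415352 for base 895.

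Mnd1 signal was higher in all 4 knockouts than in any control, and at 1 of its 2 probes it was also well above background in the controls. At base 462 its processed intensity was 526, 976, 308 and 477 in WT 1 to 4 and 4864, 2471, 4373 and 6690 in CKO 1 to 4, before scaling between arrays. All 4 CKO mice were thus above the highest WT mouse, and the probe was well above background on all 8 arrays. Scaled, the levels were -3.25, -2.22, -3.75 and -3.42 in WT 1 to 4 and 0.22, -0.70, 0.15 and 0.36 in CKO 1 to 4. The means were -3.16 ± 0.66 (SD, n = 4) and 0.0077 ± 0.48 (SD, n = 4), a log2 difference of 3.17 with a standard error of 0.37, or 8.98-fold. WT 2 was the highest control and CKO 2, the female, the lowest knockout. The arrays measure ribosome-bound RNA pooled over the cells of a mouse. More Mnd1 RNA per cell, more of it on ribosomes and more cells that hold it therefore cannot be told apart.

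The other Mnd1 probe had the same order of groups with a larger gap. At base 793 the intensity was 29.0, 140, 30.2 and 28.2 in WT 1 to 4, not well above background on any of these arrays. In CKO 1 to 4 it was 1849, 1015, 4139 and 3324, well above background on all 4. With this scaling the bound on the Mnd1 difference by this probe was 25.4-fold higher in CKO. It was taken against the lowest signal called well above background on each WT array, or the probe's own where higher. That floor is the dimmest so called of any probe, and no detection limit for this one. After background correction by normexp and quantile normalization the measured log2 difference was 2.75, so the bound is no firm minimum. WT 2 was again the highest control and CKO 2 again the lowest knockout, while CKO 3 was the highest knockout here and CKO 4 at base 462.

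By the probe at base 462 Mnd1 was higher in CKO on both slides that held both genotypes. The difference was 2.74 within slide 2, 3.67 within slide 3 and 3.11 with the slide as a block. In males alone it was 3.21. On slide 3 WT 4 is the single control. Background correction by normexp, followed by quantile normalization, gave 2.37. The authors' own values gave 3.25 at base 462. Of 44316 probes well above background on at least 4 arrays, the 2 with the largest measured log2 differences upward were those of Mnd1. This is the contrast that chose the gene, and the probe at base 793 passed that filter through the CKO arrays alone, so the rank is a description and supports nothing.

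**Figure D1:**
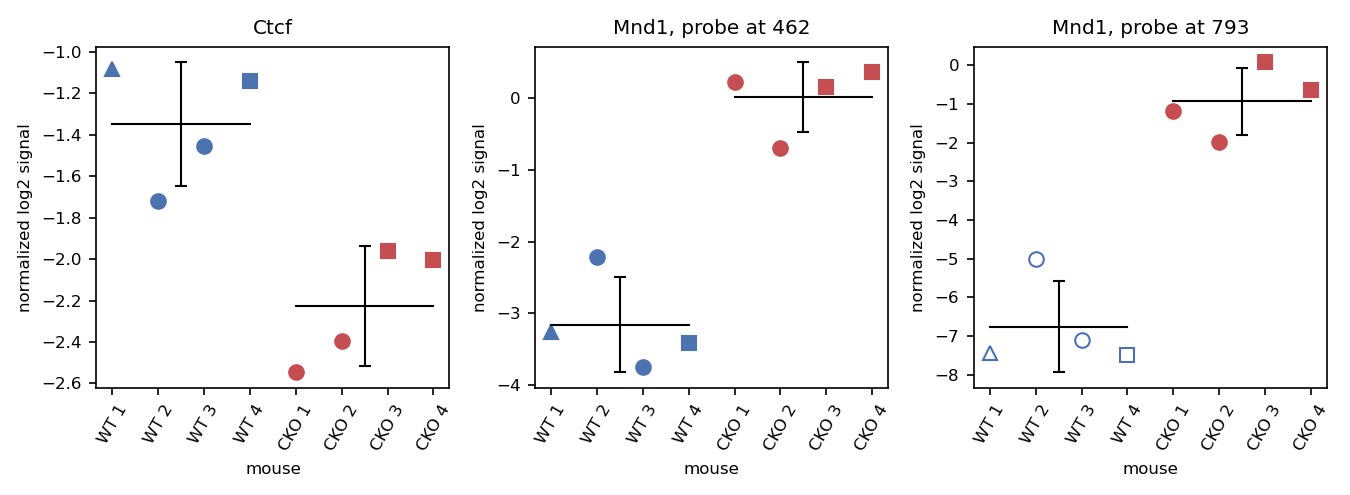
Normalized log2 signal (vertical axis, a separate scale in each panel) of Ctcf and of both Mnd1 probes in each of the 8 mice (horizontal axis). Blue marks WT and red CKO, triangles, circles and squares mark slides 1, 2 and 3, open symbols are not well above background, and black lines are group means with their SD (n = 4). Ctcf was lower and Mnd1 higher in all 4 CKO mice, and the highest CKO mouse was CKO 4 at base 462 and CKO 3 at base 793.

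**Figure D2:**
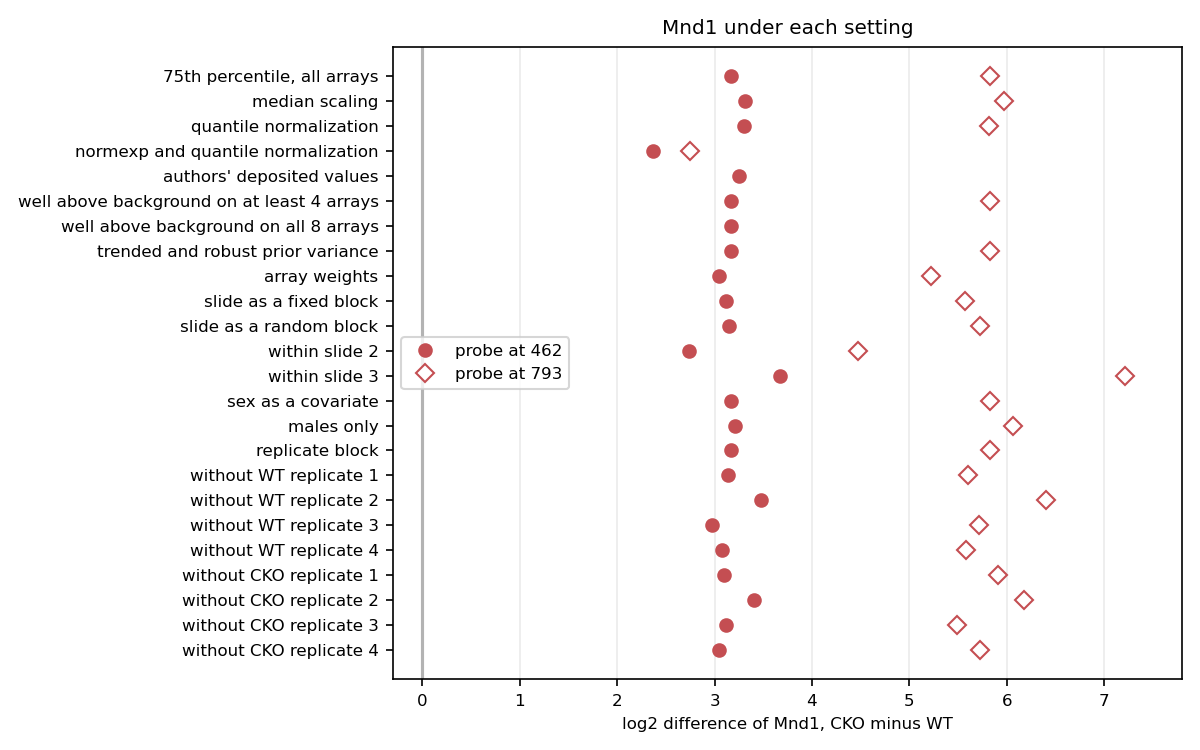
Log2 difference of Mnd1 (CKO minus WT, horizontal axis) under each processing setting (vertical axis), for the probe at base 462 (filled) and at base 793 (open). At base 462 all values lay between 2.37 and 3.67, the open symbols are measured differences from WT signals not well above background, and none is drawn where the probe at base 793 was filtered out or blank.

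Mouse by mouse, CKO 1 had the least Ctcf (-2.55) and a Mnd1 level of 0.22, and CKO 3 had the most Ctcf among the knockouts (-1.96) and a Mnd1 level of 0.15. Groups of 4 are too small to test such a relation within a genotype.

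Psmc3ip, whose product HOP2 is the partner of MND1, was not higher in the knockouts. Its level was -1.0, -0.77, -1.06 and -0.60 in WT 1 to 4 and -1.40, -1.03, -1.38 and -0.92 in CKO 1 to 4. The groups overlapped, with a log2 difference of -0.32 (SE 0.18). With the authors' own values it was -0.026. Psmc3ip was well above background on all 8 arrays.

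Dmc1, the meiotic recombinase, was read by 3 probes. At base 614 the level was -3.00, -2.14, -2.06 and -3.25 in WT 1 to 4 and -2.15, -2.24, -4.27 and -2.98 in CKO 1 to 4. The groups overlapped, and the lowest value in each was on slide 3 (WT 4 and CKO 3). At base 895 those same 2 mice were again the lowest and the ones not well above background, at -5.25 and -7.22, while the other 6 lay between -3.91 and -2.93. The log2 difference was -0.30 (SE 0.50) at base 614 and -0.73 (SE 0.91) at base 895. Without CKO 3 these became 0.16 and 0.19, so 1 array sets their sign. The third probe, at base 1663, was not well above background on any array. Spo11, which makes the breaks that Dmc1 repairs, was well above background on WT 1 alone, and no fold is given for it.

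The lateral-element gene Sycp2 was at -2.44, -2.81, -2.65 and -3.16 in WT 1 to 4 and at -3.56, -2.58, -4.11 and -3.19 in CKO 1 to 4. Of the CKO mice 3 lay below the WT range, but CKO 2 was within it, and the log2 difference was -0.59 (SE 0.33). Sycp3, the other lateral-element gene, differed by 0.20 (SE 0.24) at base 652 and by 0.25 (SE 0.35) at base 815. At both of its probes the groups overlapped. At both probes CKO 3 and CKO 4, of slide 3, were above CKO 1 and CKO 2, of slide 2. Sycp1, the cross-link of the complex, was well above background on WT 1 alone, at -4.31, with the other 7 mice between -7.61 and -6.67.

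Of the meiotic cohesin genes, Rec8 was the one member besides Mnd1 whose CKO mean was higher by more than both groups' SDs. Rec8 encodes the subunit that replaces RAD21 in the ring. It was at -2.20, -1.74, -2.11 and -2.16 in WT 1 to 4 and at -1.84, -1.41, -1.29 and -1.41 in CKO 1 to 4. CKO 1 lay just below WT 2, so the groups overlapped, and the log2 difference was 0.56 (SE 0.18), with 0.30 within slide 2 and 0.81 within slide 3.

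Smc1b and Stag3, the meiotic counterparts of the general subunits SMC1A and STAG1 or STAG2, did not follow Rec8. Smc1b was at -3.22, -3.05, -2.62 and -4.84 in WT 1 to 4 and at -3.20, -3.10, -4.34 and -3.84 in CKO 1 to 4, a difference of -0.18 (SE 0.50). Stag3 was at -2.55, -1.54, -1.46 and -3.65 in WT 1 to 4 and at -1.22, -1.93, -5.02 and -3.20 in CKO 1 to 4, a difference of -0.54 (SE 0.84), which was 0.19 without CKO 3. In both genes the 3 mice of slide 3 were the lowest of all 8, whatever their genotype. With the slide as a block the differences were 0.11 for Smc1b and -0.23 for Stag3. Smc1b differed by -0.31 within slide 2 and by 0.76 within slide 3, and by 0.057 without CKO 3.

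**Figure D3:**
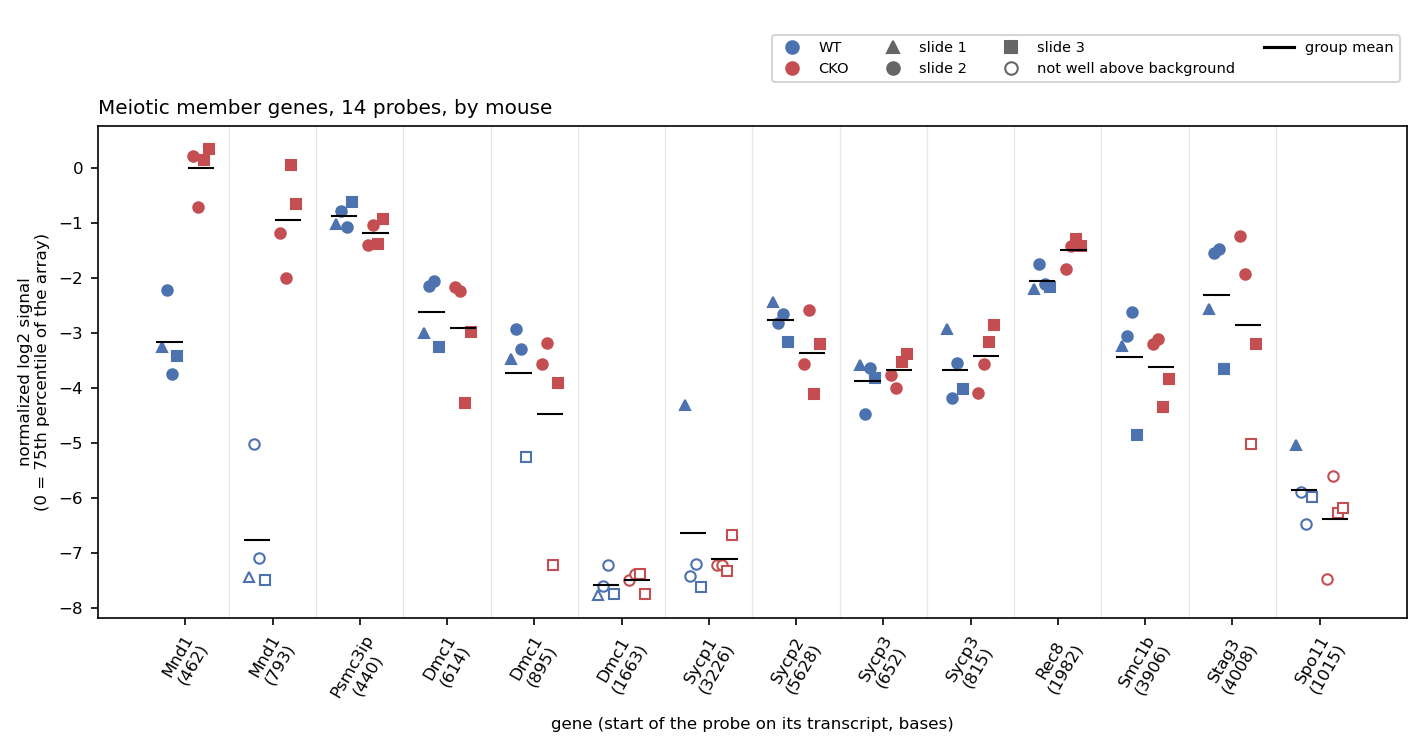
Normalized log2 signal (vertical axis) of all 14 member probes in each mouse, with the gene and the first base of the probe on its transcript along the horizontal axis. Blue marks WT and red CKO, shapes mark slides, open symbols are not well above background, and bars are group means. The groups are apart at both Mnd1 probes and overlap at the other 12, and the squares of slide 3 are the lowest symbols for Smc1b and Stag3.

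Counted over all members, CKO and WT mice did not overlap at 2 of 14 probes, both of Mnd1. Of all 55663 probes 3.03% did not overlap, 1.49% with CKO above WT and 1.53% with CKO below. Nothing is read from this count, since the contrast chose Mnd1. Passing the brightness filter of at least 4 arrays were 11 of the 14 probes, those not passing being the third Dmc1 probe, Sycp1 and Spo11. Of all 55663 probes 44316 passed this filter, a like share. Rec8 and Sycp3 were the members besides Mnd1 with a positive difference at each probe that passed it.

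Sex was not used in choosing the genes and could be tested, with genotype in the model. Over all probes limma called 46 between females and males at an adjusted p of 0.05, which is 0.0826%. None of the 14 member probes was among them, the smallest adjusted p being 0.590. Mnd1 at base 462 was lower in the females of both genotypes by 0.86 on the log2 scale (SE 0.31, limma unadjusted p = 0.0278, adjusted p = 0.590), and WT 3 and CKO 2, the females, were the lowest mice of their groups. At base 793 it differed by -0.92 (SE 0.70, limma adjusted p = 0.595), where WT 3 was not the lowest. The interaction of genotype with sex called 0.0018% of all probes and no member (limma adjusted p = 1.00 for all 14). With 1 female per genotype this does not show that the members' differences were alike in both sexes.

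Other genes of meiosis, 77 in 7 groups by function, were compared between the genotypes in the same fit. Of these 75 had a probe, 54 were well above background on at least 4 arrays and 10 on no array. With limma 0 of the 75 were called at an adjusted p of 0.05, higher or lower, where 3 of all probes were (0.00539%). All 3 were lower in CKO, so no Mnd1 probe was among them, and a gene that differed like Mnd1 would not have been called either. At an unadjusted p under 0.05, 2 were higher in CKO and 1 lower, beside 1.85% and 3.38% of all probes. The balance over all probes moved with the scaling, from 1031 higher and 1884 lower to 1423 higher and 1067 lower after quantile normalization. In the authors' values it was 1486 higher and 495 lower, but over the 43178 probes without blanks, so there the set of probes differed too. The median log2 difference of the 75 genes was -0.17, against -0.070 over all probes, and with median scaling these were -0.023 and 0.077.

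The gene of this list with the smallest p was Zcwpw1, whose product reads the histone marks that PRDM9 leaves at sites of meiotic breaks. It was at -2.68, -2.61, -3.40 and -3.29 in WT 1 to 4 and at -1.66, -1.98, -2.08 and -2.00 in CKO 1 to 4. All CKO mice were above all WT mice, with a log2 difference of 1.07 (SE 0.22, limma unadjusted p = 0.00127, adjusted p = 0.618), so it did not pass over all probes. Over the 23 alternatives its difference ran from 0.80 to 1.44 and its limma adjusted p from 0.242 to 0.999. Also among the genes of break formation, Rec114, a partner of SPO11, differed by -0.74 (SE 0.34, limma adjusted p = 0.797).

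Among the recombinase loaders Brme1, a binding partner of the BRCA2-associated protein HSF2BP, differed by 0.48 and Sfr1, a recombination cofactor, by 0.37. In the crossover group, 14 of 15 genes had differences below 0 with this scaling, with which 24134 of all 55663 probes were above 0. Its smallest p values were those of the nuclease gene Mus81 at -0.34 and the ligase-like Rnf212b at -0.33. The synaptonemal genes Syce1 and Tex12, both of the central element, differed by 0.62 and -0.39, in opposite directions. None of these 6 passed, with a limma adjusted p of 0.797 each.

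The remaining groups each held differences in both directions. Of meiotic cohesion, Meikin, a kinetochore protein of the first division, differed by -0.31 and Sgo2a, a protector of cohesin, by -0.24. Of the genes that tether chromosome ends to the nuclear envelope, Majin differed by -0.36, with 0.20 at a second, dimmer probe, and Spdya by 0.30. Piwil1, a partner of germline small RNAs, exceeded background clearly in all 4 WT mice and in 0 CKO mice. Its measured log2 difference was -1.50 (limma adjusted p = 0.797). With this scaling the bound, taken as for Mnd1 but against the CKO arrays, was 1.88-fold lower in CKO. Over 21 alternatives the log2 difference ran from -1.65 to -0.20, so that bound is no firm minimum. Sohlh1, a transcription factor of early germ cells, differed by -0.52. None of these passed, with a limma adjusted p of 0.797 to 0.813.

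None of the germ cell markers passed the test. Of 8 such genes (Ddx4, Dazl, Mael, Piwil1, Tdrd1, Tex101, Stra8 and Sohlh1), 4 were well above background on all arrays, 0 were higher and 1 was lower at an unadjusted limma p under 0.05, and 0 passed adjusted. Of all probes 1.85% were higher and 3.38% lower at that unadjusted threshold. The log2 of the summed signal of the 8 germ cell markers lay between 1.29 and 2.05 in WT and between 0.89 and 1.62 in CKO. The brightest genes of a list weigh most in such a sum. Stra8, which starts meiosis, was not well above background on any array. Markers of other brain cells were taken likewise, as the log2 of the summed signal of 8 genes each. They were at 5.28 to 5.72 in WT and 5.39 to 5.53 in CKO for oligodendrocytes, 4.62 to 4.75 and 4.72 to 5.23 for astrocytes, and 6.01 to 6.46 and 6.23 to 6.71 for microglia. In each of these lists of 8 genes 1 was higher at an unadjusted limma p under 0.05, beside 1.85% of all probes, and 0 passed adjusted. Of the astrocyte markers 1, Gja1, was not well above background on any array. The part of these cells in the Mnd1 level was not tested.

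Genes for the proteins that silence meiotic genes in somatic cells were measured next. Of 23 such genes all had a probe, 22 were well above background on all 8 arrays, and limma called 0 of them at an adjusted p of 0.05 and 0 at an unadjusted p under 0.05, in either direction. Of all probes 0.00539% were called adjusted, and 1.85% higher and 3.38% lower unadjusted, so few calls among 23 genes could be looked for. The median log2 difference of the 23 genes was 0.13, with 16 of 23 above 0, where 24134 of all 55663 probes were above 0. The median of all probes was -0.070 and moved to 0.077 with median scaling, so a count of signs depends on the scaling. Max, the shared partner of MGA and MYC, differed by 0.38 (SE 0.18) and the DNA methyltransferase gene Dnmt3b by -0.68 (SE 0.35). For each the limma adjusted p was 0.797. Of 2 other Dnmt3b probes, the one well above background on all arrays differed by -0.0057.

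The general cohesin genes, somatic counterparts of the meiotic subunits, did not pass the test either. Smc1a differed by -0.093, Rad21 by 0.063, Stag2 by -0.086, Smc3 by 0.39 and Stag1 by 0.48. Stag1 had an unadjusted limma p of 0.0427 and, like the others, did not pass adjusted (limma adjusted p of 0.797 to 0.902). A second Stag1 probe differed by 1.09.

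**Figure D4:**
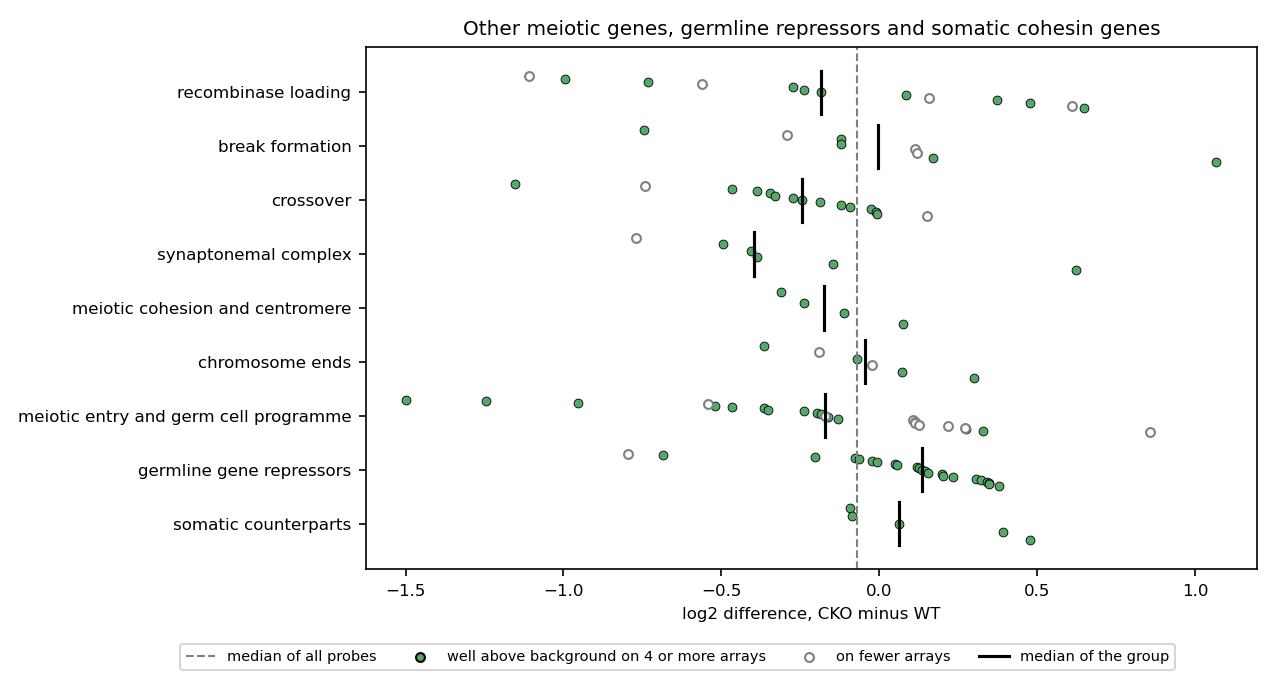
Log2 difference (CKO minus WT, horizontal axis) of each measured gene, 1 point a gene, in the 7 groups of other meiotic genes, the repressors and the somatic cohesin genes (vertical axis). Filled points were well above background on at least 4 arrays, black bars are group medians, and the dashed line is the median of all probes at -0.070; the point farthest right is Zcwpw1 at 1.07.

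The genes around Mnd1 on the chromosome were compared next. Within 1 Mb of its probe at base 793 on chromosome 3 (mm9) there were 15 named genes, 9 of them well above background on at least 4 arrays, and with limma 0 passed an adjusted p of 0.05. At an unadjusted limma p under 0.05, 1 was higher and 1 lower, beside 1.85% and 3.38% of all probes. The median log2 difference of the 15 genes was -0.028. Trim2, a neuronal ubiquitin ligase and the nearest at 73.9 kb, differed by 0.33 (SE 0.16), with 0.082 at its other probe. Tmem131l, on the other side at 179 kb, differed by -0.028 (SE 0.21).

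Sfrp2, a secreted antagonist of Wnt signals 314 kb away, was the neighbour with the largest difference. Its level was -3.59, -5.22, -4.99 and -5.11 in WT 1 to 4 and -1.38, -3.29, -2.93 and -3.10 in CKO 1 to 4. All CKO mice were above all WT mice, CKO 2 by a small margin over WT 1, with a log2 difference of 2.05 (SE 0.51, limma unadjusted p = 0.00348, adjusted p = 0.797). After background correction by normexp and quantile normalization it differed by 0.98. The nearby Gm6525 differed by -0.39, Tlr2 by -0.34, Arfip1 by -0.36, Gm35410 by 0.15, Dchs2 by -0.26 and Fbxw7 by 0.096, each with a limma adjusted p of at least 0.797. Fbxw7 differed by 0.62 at its other probe.

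**Figure D5:**
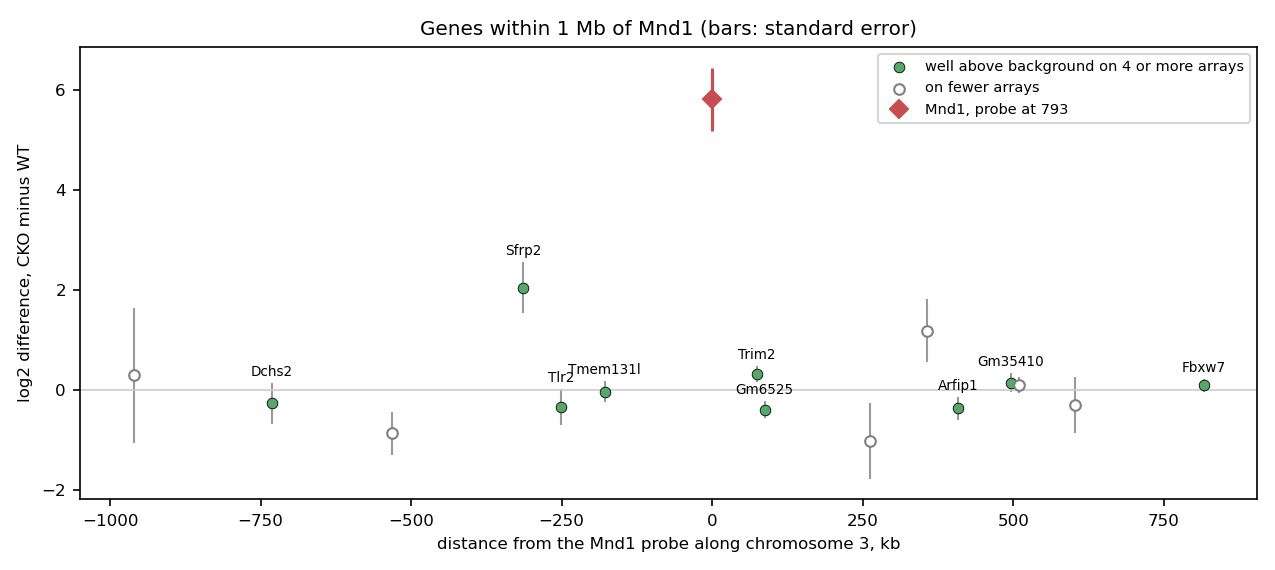
Log2 difference (CKO minus WT, vertical axis, bars are standard errors) of the 15 named genes within 1 Mb of Mnd1, against their distance from the Mnd1 probe in kb (horizontal axis). The diamond is the Mnd1 probe at base 793, as measured from WT signals not well above background, filled points were well above background on at least 4 arrays, and Sfrp2 at 2.05 is the highest of the neighbours.

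The promoter of Mnd1 was read for letters of known binding motifs, since CTCF and the germline repressors bind DNA. The promoters come from RefSeq's GRCm38.p6 table, which held 9 of the 10 members, as windows of 250 bases before to 50 after the transcription start. The 250 bases before the start are shown for Mnd1 (chr3:84155787-84156036, minus strand) and for its partner gene Psmc3ip (chr11:101095436-101095685, minus strand), with motif matches in capitals.
Mnd1: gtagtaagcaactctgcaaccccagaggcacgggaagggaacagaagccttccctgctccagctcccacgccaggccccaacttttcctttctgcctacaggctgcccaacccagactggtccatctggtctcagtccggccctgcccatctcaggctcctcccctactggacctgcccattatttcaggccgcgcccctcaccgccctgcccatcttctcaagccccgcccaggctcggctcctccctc
Psmc3ip: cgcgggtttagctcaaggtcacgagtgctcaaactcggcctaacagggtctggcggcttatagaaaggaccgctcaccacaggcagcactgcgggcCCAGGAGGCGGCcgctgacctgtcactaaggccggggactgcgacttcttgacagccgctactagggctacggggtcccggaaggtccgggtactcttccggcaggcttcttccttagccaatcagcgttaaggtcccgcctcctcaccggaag
Both strands were searched for a form of the CTCF core (CCA, any 2 bases, AG, any 2 bases, GGC), for the E-box CACGTG of MGA and MAX, and for TTCCCGC, an E2F site. The Mnd1 window held none of these letters, which says only that they are not in this window. The CTCF form was found in Psmc3ip and Sycp2 and in 2.43% of all 32851 promoters. The E-box was found in Sycp1, Sycp3 and Stag3 and in 7.15% of all promoters. The E2F letters were in Sycp3, Smc1b and Stag3 and in 4.6% of all. The Mnd1 window was 65.0% G or C with 12 CG dinucleotides, against medians of 52.7% and 7 over all promoters, and Stag3 had 30. Motifs and windows are descriptions and do not show binding.

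Genes whose level over the 8 arrays was most like Mnd1 at base 462 were then ranked among 16730 named genes well above background on all arrays. The 5 with the highest Pearson correlation were Homer2 (0.975), a postsynaptic scaffold gene, Nmbr (0.963), the neuromedin B receptor, the noncoding A930016O22Rik (0.963), Mettl25 (0.955) and Asl (0.950), an enzyme of the urea cycle. The 8 points fall into the 2 genotypes, and all 5 had all CKO mice above all WT mice, as had 1.49% of all probes. Mnd1 itself separates the genotypes, so a ranking by likeness to it favours such genes, and nothing is read from this count. The log2 differences of the 5 genes were 0.44 for Homer2, 2.26 for Nmbr, 2.11 for A930016O22Rik, 0.79 for Mettl25 and 1.35 for Asl, smaller than that of Mnd1. A second probe of Homer2 differed by -0.056, one of A930016O22Rik by -0.88, and one of Mettl25, not well above background on any array, by 0.13. None of the 5 passed over all probes (limma adjusted p from 0.120 to 0.797), although A930016O22Rik did when only probes well above background on all 8 arrays were tested (limma adjusted p = 0.0330).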

How the data were processed

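Ribosome-bound RNA from the hippocampi of 8 mice was amplified and labelled with Cy5, per the labels' protocols, and measured on 1-colour Agilent arrays. The deposited scanner files hold an intensity per spot, made with Agilent Feature Extraction (version 11.5 per the submitters' processing notes), background-subtracted and detrended per the file headers, with mm9 coordinates. The authors' deposited value table is an intensity on a linear scale, with normalization not given in the sources used here. It was blank for 7359 to 11803 spots an array, and column medians ran from 1263 to 1987. Its ranks followed the scanner signal (Spearman correlation across probes, 0.9988 to 0.9995).

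Of 62976 spots 3671 controls and outlier-flagged spots were left out. Spots of a probe were averaged as log2 of the processed signal minus each array's 75th percentile, and 18 of 55681 probes lacked a spot on some array. Names came from the GRCm38.p6 table for 28324 probes and otherwise from the file. No brightness filter was applied, because members include dim probes. A gene of a list stands by its probe with the highest mean. All probes were fitted with limma 3.58.1 in R 4.3.3 (lmFit, eBayes, two-sided) with Benjamini-Hochberg adjustment and a threshold of 0.05. The fit was tested on simulated data. The mice are labelled biological replicates, and the number of arrays limits precision.

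The members, lists and the rule for named genes were chosen with earlier results of these data known. The rule takes all members, Ctcf, from each list the 2 genes with the smallest p among those well above background on at least 4 arrays, the 5 somatic cohesin genes, up to 12 neighbours within 1 Mb, and the 5 genes most like Mnd1. Neighbours were placed by mm9 probe coordinates. Alternatives were other scalings, normexp with an offset of 50, the authors' values, brightness filters, a trended and robust prior, array weights, slide and replicate blocks, within-slide fits, sex, males alone, and each array left out. One gene of the lists is not reported here by name.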

Additional observations from a re-analysis of the deposited data

Results flagged for a closer look

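Of the 28 groups of 4 mice formed by the 14 member probes, 3 held a mouse far from the other 3, where chance gives about 1 in 20. WT 2 was at -5.02 for Mnd1 at base 793, with the next WT mouse at -7.10, and no WT array was well above background there. WT 1 was at -4.31 for Sycp1, with the next at -7.20. CKO 4 was at -6.67 for Sycp1, with the next at -7.22, and no CKO array was well above background for it.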

How the results depend on the processing

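Mnd1 at base 462 was higher in CKO under all 23 alternatives. With normexp and quantile normalization its difference was 2.37, and with each array left out it ran from 2.97 to 3.48. The 0 calls among other meiotic genes, repressors and neighbours remained 0 in all 23. The 3 probes called over the whole table became 10 with array weights, 5 with the slide as a random block, 1 with quantile normalization, and 0 with the authors' values, the filter at 4 arrays, the trended prior, the slide as a fixed block, within slide 2, sex as a covariate, males alone or the replicate block. With each array left out they ran from 0 to 12, with 12 without WT 4, 2 without CKO 2, 1 without CKO 1 and 0 without any other. The 46 probes called by sex became 264 with array weights, 113 with the slide as a fixed block, 30 with median scaling, 17 with normexp, 4 with the authors' values, and 6 and 5 with the filters at 4 and 8 arrays, and ran from 4 (without WT 3) to 101 (without CKO 2) with an array left out, with 86 without WT 2 and 23 without either WT 4 or CKO 4. The cause was not tested. Same-numbered mice shared only a number: their deviations correlated at -0.34, 0.45, -0.42 and 0.13, and with the replicate number as a block the Mnd1 difference stayed at 3.17. Of the single genes' values under alternatives 1094 kept their call or stayed within the spread, 15 moved further and 1 passed. Dim probes limit what can be said of Sycp1, Spo11 and the third Dmc1 probe.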

Other observations

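Farther along chromosome 3, within 5 Mb of Mnd1, 116 named genes had a median log2 difference of 0.036, and with limma 0 passed an adjusted p of 0.05. At an unadjusted limma p under 0.05, 6 of the 116 were higher and 3 lower, beside 1.85% and 3.38% of all probes. Of the 6 that were higher, 5 lay between 4274717 and 4484305 bases from Mnd1, and they were named after their values were seen. They were Etfdh, an electron carrier of fatty acid oxidation, at 1.87 (limma adjusted p = 0.154), the transcript 4930579G24Rik at 1.16 (limma adjusted p = 0.473), and Tmem144 at 1.09, the relaxin receptor gene Rxfp1 at 0.86 and Ppid, a cyclophilin, at 0.38, each with a limma adjusted p of 0.797. Etfdh was at -3.21, -3.49, -3.04 and -2.71 in WT 1 to 4 and at -1.04, -1.85, -0.996 and -1.08 in CKO 1 to 4. For Etfdh, 4930579G24Rik and Ppid all CKO mice were above all WT mice, as for 5 of the 116 genes in all and 1.49% of all probes. Since these genes were named after their values were seen, nothing is read from this.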
